A study of Caenorhabditis elegans with 30 samples.

Results

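H3K9me3 islands in the centres of the C. elegans autosomes are the few 1 kb windows of the gene-rich central regions with high H3K9me3. They were taken from the windows of the WS190 (ce6) genome that were not marked as misannotated (99764 of 100270). A window was a member when its mean H3K9me3 over the 3 WT libraries was in the top 5 percent of all these windows (22.6 RPKM or more) and it lay in the centre of chromosome II, III, IV or V. RPKM is the read count of a window scaled to its length and to the depth of the library. The rule found 429 members among 33337 centre windows. In the arms of these chromosomes 4.34% (chromosome IV) to 16.7% (chromosome V) of the windows reached the same limit. Member windows separated by at most 1 other window were joined into 136 islands, and an island is named below by the kb positions of its outer windows. The H3K9me3 of WT chose the members, so every H3K9me3 difference from WT is given here as a description and without a test.

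H3K9me3 is trimethylation of lysine 9 of histone H3, a mark of silent chromatin that in C. elegans lies mainly over the repeat-rich chromosome arms, while the centres hold most of the highly expressed genes. It is laid down by histone methyltransferases (HMTs). MET-2 makes the mono- and dimethylated forms, SET-25 the trimethylated form, and SET-32 is a further HMT of the H3K9 class. In the germline, small RNAs bound to the nuclear Argonaute HRDE-1 direct both H3K9me3 and a block of transcription to their targets, many of which are LTR retrotransposons.

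The study asked which HMTs make the H3K9me3 at such targets and whether its loss changes their transcription. ChIP-seq was made from whole synchronized young adults raised at 19 °C, of set-32 (allele ok1457), of the double mutant met-2 set-25 (alleles n4256 and ok5021), of the triple mutant met-2 set-25;set-32 that joins these alleles, of hrde-1 (allele tm1200) and of the wild type N2 (WT). H3K9me3 was measured with each strain on OP50 bacteria, gfp RNAi bacteria and oma-1 RNAi bacteria (15 libraries), and RNA polymerase II phosphorylated at S2 (Pol II), the elongating form, on both kinds of RNAi bacteria (10 libraries). Animals on RNAi bacteria had fed on them for about 3 generations, so that gfp RNAi, whose target N2 does not carry, served as the control feeding. There was 1 library for each strain and feeding. The feedings stand in for replicates of a strain (n = 3 for H3K9me3, n = 2 for Pol II). The labels do not say how many cultures a library came from. The SDs and permutation tests of library medians keep the differences between feedings. The fits of single windows took out the shift that all strains share on a feeding. Errors and p-values of these fits rest on how strain differences vary between feedings, pooled over the strains of a mark. This spread cannot be told apart from variation between cultures or libraries, since no strain had replicate libraries on the same feeding. Whole animals hold germline and somatic cells, and a change in the share of a tissue cannot be told apart from a change within its cells.

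From the RPKM steps that single reads make, depth was estimated at 2446000 to 7229000 aligned reads in the H3K9me3 libraries and 3817000 to 6782000 in the Pol II libraries. The median island window then held 36.0 to 130 reads for H3K9me3 and 21.7 to 46.6 reads for Pol II. All libraries of hrde-1, of met-2 set-25 and of WT have names with the same leading code. The H3K9me3 libraries of set-32 and that of the triple mutant on OP50 share another, and the remaining libraries of these strains a further one. What the codes stand for is not stated, and wherever the codes of compared strains differ, code and strain cannot be told apart.

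The islands were unevenly spread. Chromosome V held 220 member windows (2.08% of its 10596 centre windows), chromosome IV 112 (1.24% of 9029), chromosome III 58 (0.880% of 6589) and chromosome II 39 (0.548% of 7123). Most of the 112 windows of chromosome IV (64) lay in the 10 percent of its centre beside the left arm. On chromosome V, 86 windows lay in the last 10 percent of the centre and 67 between 20 and 30 percent of its length. Of the 136 islands, 64 were single windows, 26 had 2 member windows, and 46 had at least 3. Only 7 reached 10 member windows. By contrast the arms of chromosomes II to V held 3252 windows of the top 5 percent in 615 regions, of which the longest had 245 windows.

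**Figure D1:**
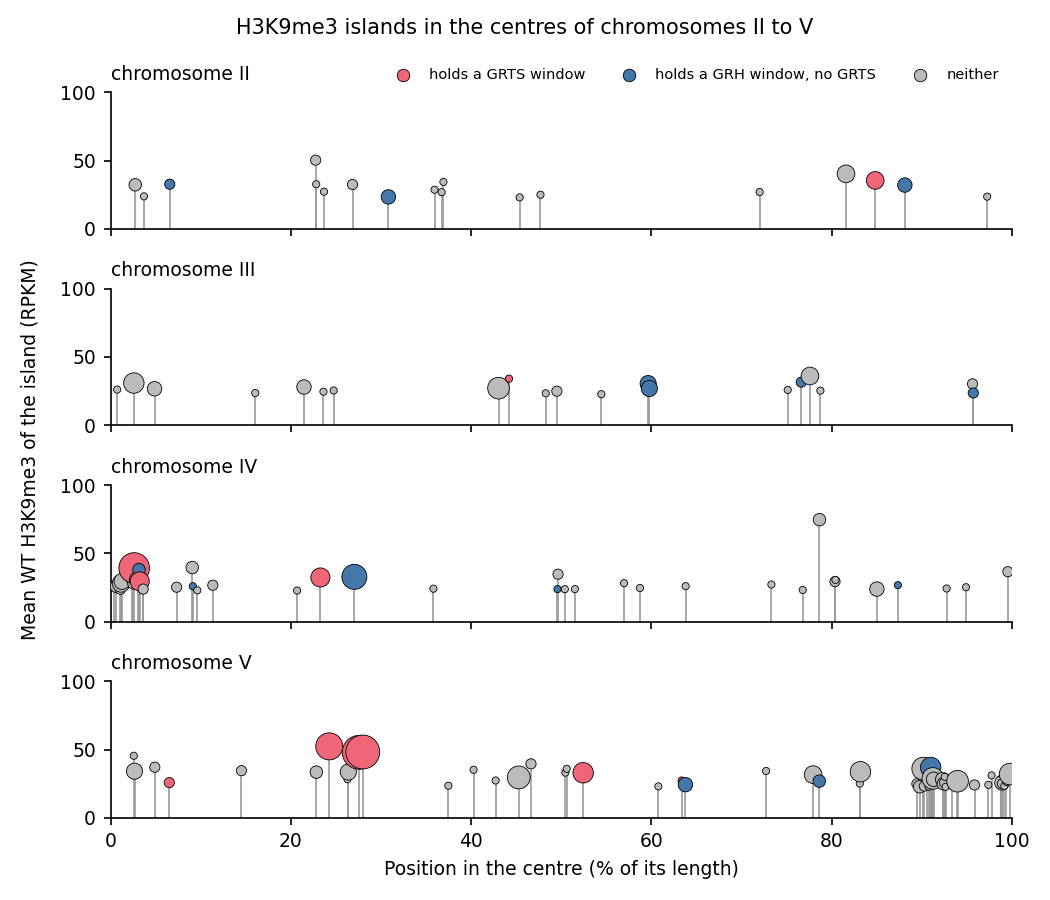
Position of the 136 islands along the centres of chromosomes II to V (x axis, percent of the length of the centre) and their mean WT H3K9me3 (y axis, RPKM). The area of a circle is proportional to the number of member windows, and its colour says whether the island holds a GRTS window, a GRH window or neither. Islands crowd at the start of the chromosome IV centre and in the last 10 percent of the chromosome V centre, and the tallest island is a short one on chromosome IV (74.6 RPKM).

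Germline nuclear RNAi targets were more frequent among the island windows than among arm windows or other centre windows. The deposited table marks the windows in which the authors' earlier work on hrde-1 found H3K9me3 that depends on nuclear RNAi (GRH) or transcriptional silencing that does (GRTS). Of the 429 members, 47 (11.0%) were GRH and 48 (11.2%) were GRTS, with 8 marked as both and 342 as neither. Only 20 of the GRTS members lay among the 385 members outside 2 near-equal islands of chromosome V, described below. Of the 3252 arm windows 41 (1.26%) were GRH and 77 (2.37%) were GRTS, and of the 32908 other centre windows 40 (0.122%) and 15 (0.0456%) were. The members thus held 54.0% of all GRH windows and 76.2% of all GRTS windows of the 4 centres. A GRH window needs H3K9me3 that can be lost, and the rule chose windows for high H3K9me3 in WT. The larger share of GRH windows among members than among other centre windows is therefore partly set by definition. Both marks were defined by a loss in hrde-1, so they are no independent evidence of the direction of a change in hrde-1.

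The islands had more Pol II in WT than the arm windows of the same top 5 percent in H3K9me3. The median island window had 6.42 RPKM on gfp RNAi and 5.51 RPKM on oma-1 RNAi, against 3.57 and 2.77 RPKM in the arm windows. The other centre windows had a median of 4.89 and 3.69 RPKM, but a larger share of them was strongly transcribed. At least 20 RPKM was reached by 49 members (11.4%), against 107 arm windows (3.29%) and 17.6% of the other centre windows.

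Many island windows consist partly of sequence with several copies in the genome. The authors counted a read that matches N places as 1/N at each, so a window whose value is a whole number of reads (within 0.01 RPKM) had few such reads. In at least 20 of the 25 libraries this held for 150 members (35.0%), against 47.6% of the arm windows and 84.6% of the other centre windows. The other 279 members (65.0%) carry reads shared with copies elsewhere, and their values are uncertain in which copy they belong to. The largest pair of islands is the clearest case. V 8867 kb onward and V 8825 kb onward have 22 member windows and 14 GRTS windows each, and at a distance of 42 kb the mean over all libraries of 22 of the 23 windows compared agreed within 10 percent. Their values are therefore not independent of each other. No sequence of these regions is given, since no genome of this build was used here.

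The edge of the rule ran through windows of like level. The members just inside it were IV 4225 kb, V 15518 kb and V 15768 kb with means of 22.66, 22.67 and 22.68 RPKM, and the centre windows just outside it were V 8577 kb, V 15757 kb and IV 8399 kb with 22.61, 22.60 and 22.57 RPKM. The germline gene oma-1 on chromosome IV was not a member, although its windows had 30.6 and 22.1 RPKM in WT on oma-1 RNAi, because they had 7.93 and 6.31 RPKM on gfp RNAi and 3.84 and 3.84 RPKM on OP50. The 3 windows of cdc-42, an essential gene of cell polarity, had 3.35 to 4.86 RPKM on average, and the control region of chromosome II used for ChIP-qPCR had 6.15 and 8.42 RPKM.

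The limit on WT H3K9me3 sets where an island ends, so the drop of the WT level at its edge follows from the rule and is given only as a description. In the 46 islands of at least 3 windows the median inner window of WT had 9.17 times the H3K9me3(-) median, the end windows 7.11 times, and the windows 1, 2 and 5 kb outside 3.99, 3.13 and 2.30 times. H3K9me3(-) stands for the 22228 windows that ranked between 5 and 25 percent by WT H3K9me3 on OP50, whose median was used as the background of each library. Since WT on OP50 chose these windows, its own background was low by selection (2.88 RPKM, against 6.13 and 4.37 RPKM in WT on gfp and oma-1 RNAi). This raised the WT ratios by an amount that was not measured. The same places in and around the islands had 2.15, 2.06, 1.59, 1.54 and 1.60 times the background for the triple mutant, so that its inner windows still stood above their surroundings, by less. Pol II in hrde-1 followed the islands as well, with a median of 13.9 RPKM in the inner windows, 9.02 in the end windows and 6.45 at 1 kb outside, against 6.09, 6.03 and 5.32 RPKM in WT.

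**Figure D2:**
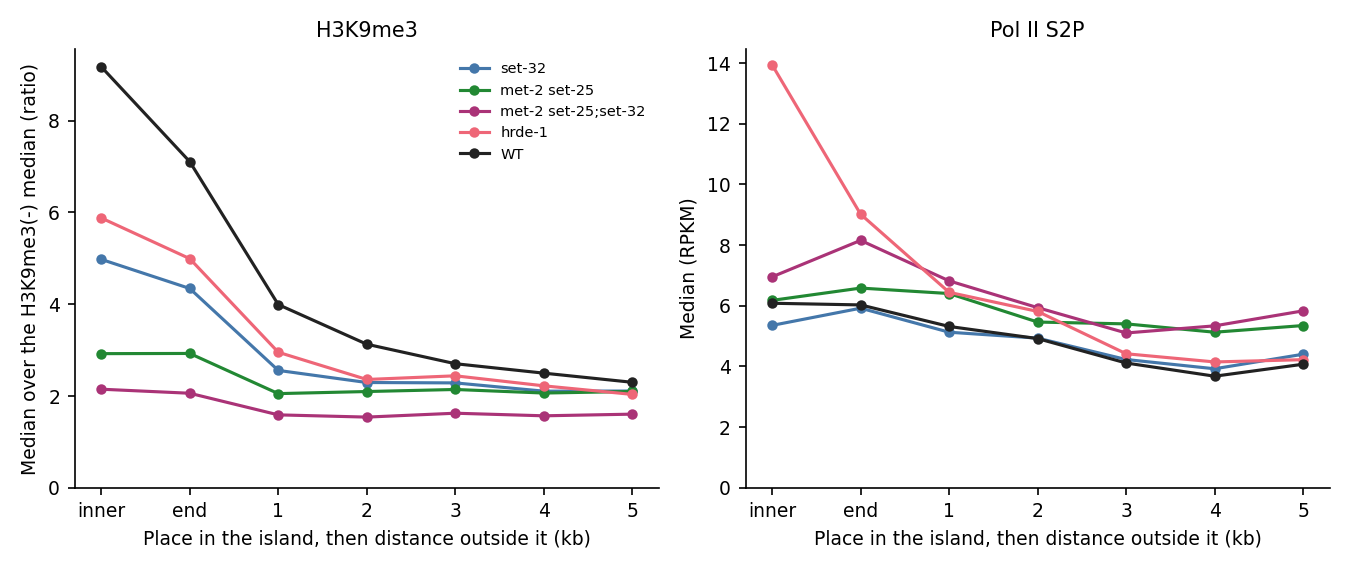
Median H3K9me3 over the H3K9me3(-) median (left, ratio) and median Pol II (right, RPKM) in the inner and end windows of the 46 islands with at least 3 member windows and at 1 to 5 kb outside them, by strain (means of the feedings). The WT line of H3K9me3 is at 9.17 inside and at 2.30 at 5 kb. The rule sets its drop at the edge, and the low background of WT on OP50 raises the line. The hrde-1 line of Pol II is the one that stands apart inside the islands (13.9 RPKM against 6.09 in WT).

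The 3 WT libraries that chose the members differed in level. The island median was 36.3 RPKM on OP50, 23.1 on gfp RNAi and 30.1 on oma-1 RNAi. Over the H3K9me3(-) median these were ratios of 12.6, 3.76 and 6.88. The first of these is raised by selection, since the background windows were chosen for low values in WT on OP50. OP50 was above the mean of the RNAi feedings in 399 of the 429 members, with a median ratio of 1.47. The reverse held in a few windows. In 13 members of 2 islands of chromosome III the WT value on OP50 was under 0.5 of that on RNAi bacteria, which was true of 2 of the 3252 arm windows. The island III 3889 kb onward had a mean of 11.0 RPKM on OP50 against 39.8 and 41.8 RPKM on gfp and oma-1 RNAi, and III 8856 to 8861 kb had 17.6 against 38.7 and 52.0 RPKM. In the mutants all feedings were low there. The means were 9.20 to 12.1 RPKM in III 3889 kb, a range that holds the WT value on OP50, and 6.99 to 14.3 RPKM in III 8856 kb, below it. These islands were singled out after their values were seen.

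In the mutants the islands kept different amounts of H3K9me3. On OP50, gfp RNAi and oma-1 RNAi, set-32 had island medians of 19.2, 19.9 and 23.1 RPKM. They were 14.8, 13.7 and 14.6 RPKM for met-2 set-25, 13.4, 13.2 and 13.1 RPKM for the triple mutant, and 24.3, 22.3 and 24.1 RPKM for hrde-1. The mutants with met-2 and set-25 lost were below all WT libraries, and the gfp RNAi library of WT lay within the range of the hrde-1 libraries. Over the H3K9me3(-) median set-32 islands were at 4.66 ± 0.773, met-2 set-25 islands at 2.93 ± 0.692, triple-mutant islands at 2.13 ± 0.202, hrde-1 islands at 5.58 ± 0.831 and WT islands at 7.75 ± 4.49 (SD over feedings, n = 3). The WT mean includes the OP50 library, whose background was low by selection. The other centre windows were at 1.40 to 1.61 in triple-mutant libraries and 1.32 to 2.14 in WT libraries.

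**Figure D3:**
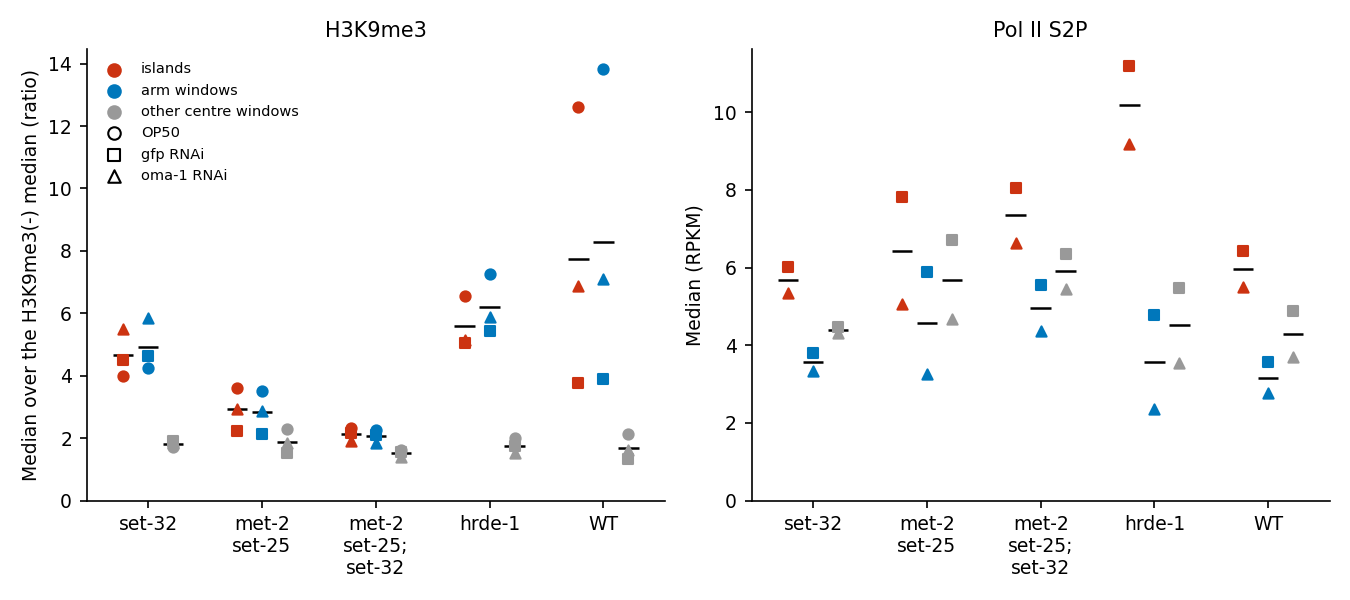
Median of the 429 island windows, the 3252 arm windows of the top 5 percent and the other centre windows in each library, for H3K9me3 over the H3K9me3(-) median (left, ratio) and for Pol II (right, RPKM). Points are libraries, with a shape for each feeding, and bars are means. Islands and arm windows lie close together in H3K9me3 in each strain, in WT because both were cut at the same limit. In Pol II the islands of hrde-1 (11.2 and 9.17 RPKM) lie above those of WT (6.42 and 5.51 RPKM).

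As a description, the windows were also set against WT with limma on log2(RPKM + 1) after scaling to the H3K9me3(-) median, with a window called if its p after Benjamini-Hochberg adjustment was under 0.05 and it changed 2-fold or more. In the triple mutant 390 members (90.9%) were lower by this rule, where 9.20 percent of all 99742 windows were. In met-2 set-25 there were 303 (70.6%, of all windows 6.08 percent), in hrde-1 94 (21.9%, of all windows 0.651 percent) and in set-32 67 (15.6%, of all windows 0.467 percent). No member was higher in any of these, where 0.0130 percent (triple mutant), 0.118 percent (met-2 set-25), 0.0742 percent (hrde-1) and 0.0110 percent (set-32) of all windows were. The members were chosen for a high WT value, and nothing is read from these counts. The median member was at 0.308 of WT in the triple mutant, 0.405 in met-2 set-25, 0.654 in set-32 and 0.852 in hrde-1. The low background of WT on OP50 enters these values through the scaling.

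The kinds of island window differed in what each mutant kept. In hrde-1 the 39 members marked GRH but not GRTS had medians of 5.28, 6.08 and 6.23 RPKM on OP50, gfp and oma-1 RNAi, against 36.7, 20 and 30.1 RPKM in WT. The 48 GRTS members had 20.8, 20.5 and 21.4 RPKM in hrde-1, against 58.0, 28.1 and 45.4 RPKM in WT. The 342 members with neither mark had 25.6, 23.2 and 25.8 RPKM in hrde-1, against 34.7, 22.8 and 28.6 RPKM in WT. In set-32 the GRH members were also the lowest, at 9.44, 10.4 and 11.4 RPKM, where GRTS members had 20.6, 21.8 and 24.2 RPKM and those with neither mark 19.9, 20.5 and 23.7 RPKM. In the triple mutant the 3 kinds were at 9.29, 8.16 and 9.07 RPKM (GRH), 14.3, 14.3 and 13.8 RPKM (GRTS) and 13.8, 13.5 and 13.3 RPKM (neither).

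Differences between mutants do not rest on the WT values and were tested. Few island windows passed the test for loss of SET-32 on top of MET-2 and SET-25. In the triple mutant against met-2 set-25 the median member was at -0.39 on the log2 scale, where the median of all windows was at -0.26. Below 0 were 424 of 429 members (98.8%), 98.6% of the arm windows and 83.4% of all windows. One member passed the test as lower (0.233%, where 0.0742 percent of all windows did) and none as higher (of all windows 0.00201 percent), with 49 members lower and 0 higher at an unadjusted p under 0.05 in limma. The member was V 15590 kb, which had 3.24, 3.22 and 4.22 RPKM in the triple mutant, against 9.48, 6.63 and 6.61 RPKM in met-2 set-25 on OP50, gfp and oma-1 RNAi (log2 change -1.14, SE 0.25, limma adjusted p 0.00911). Its libraries did not overlap, which after scaling held in this direction for 34.7% of the members and 16.3% of all windows. The window holds reads shared with other places. It passed neither with depth normalization alone nor without the OP50 libraries nor without the oma-1 RNAi libraries. Without the gfp RNAi libraries 6 members passed as lower (1.40%, where 0.230 percent of all windows did). The island medians over the H3K9me3(-) median overlapped between these strains (1.92 to 2.32 in the triple mutant, 2.23 to 3.62 in met-2 set-25, exact permutation p = 0.2, 0.444 adjusted over 8 comparisons, n = 3 each). With depth normalization alone they did not overlap (13.1 to 13.4 against 13.7 to 14.8 RPKM, exact permutation p = 0.1, not adjusted). The median member was then at -0.095 on the log2 scale, so both results depend on the scaling.

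Loss of MET-2 and SET-25 on top of SET-32 lowered many island windows. The triple mutant was lower than set-32 in 206 members (48.0%, where 5.18 percent of all windows were called lower) in 66 islands, and higher in none (of all windows 0.01 percent), with 0 higher and 361 lower at an unadjusted p under 0.05. The median member was at -0.99 on the log2 scale, against -0.30 over all windows, and the called members had a median fold of 2.37. Among other islands, every member window passed in V 8475 to 8488 kb (14 windows), V 10718 to 10727 kb (10), V 15500 to 15509 kb (10), V 14758 kb onward (8) and II 10704 to 10710 kb (6). The largest change was in II 10710 kb, which had 10.4, 14.8 and 12.8 RPKM in the triple mutant, against 33.7, 31.9 and 48.8 RPKM in set-32 (log2 change -1.95, SE 0.37, limma adjusted p 5.37e-05). V 6419 kb had 8.55, 8.30 and 9.64 RPKM in the triple mutant, against 26.8, 21.5 and 33.9 RPKM in set-32 (log2 change -1.94, adjusted p 9.09e-06). In both windows each triple-mutant library lay below each set-32 library, which after scaling held for 95.6% of the members and 39.3% of all windows. II 5076 kb, V 8485 kb and V 14203 kb followed, with log2 changes of -1.85, -1.79 and -1.74. Without the oma-1 RNAi libraries no member passed, where 0.0511 percent of all windows were called lower (99 lower and 0 higher at an unadjusted p under 0.05, limma), and depth normalization alone left 54 members (12.6%, of all windows 0.854 percent). Of the feedings, only OP50 has both strains under one library code, and there the island median over the background in the triple mutant was 0.583 of that in set-32, against 0.480 on gfp RNAi and 0.349 on oma-1 RNAi. The island medians over the background did not overlap, 1.92 to 2.32 in the triple mutant and 3.99 to 5.51 in set-32 (exact permutation p = 0.1, the smallest that 3 against 3 allows, 0.4 adjusted).

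Against hrde-1, met-2 set-25 had less H3K9me3 in many island windows and more in a few. It was lower in 149 members (34.7%, of all windows 5.02 percent) of 50 of the 136 islands and higher in 11 (2.56%, of all windows 0.141 percent) of 6 islands, with a median member at -0.78 on the log2 scale and -0.01 over all windows. All libraries of these strains carry the same name code. IV 7146 kb, an island of 1 window, had 2.79, 5.83 and 4.99 RPKM in met-2 set-25, against 29.3, 28.8 and 30.9 RPKM in hrde-1 (log2 change -2.74, SE 0.30, limma adjusted p 3.22e-17). V 10722 kb had 6.54, 10.4 and 9.89 RPKM in met-2 set-25, against 46.3, 38.9 and 49.8 RPKM in hrde-1 (log2 change -2.45, adjusted p 7.30e-11). IV 10866 kb, V 15508 kb and V 10723 kb were lower by log2 changes of -2.43, -2.25 and -2.25. Every window of V 8475, V 10718, V 15500 and II 10704 kb was called lower, as in the triple mutant against set-32.

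All 11 members that were higher in met-2 set-25 than in hrde-1 were GRH windows without the GRTS mark, of which there are 39 (28.2%). II 11174 kb had 14.3, 11.1 and 13.9 RPKM in met-2 set-25, against 3.71, 4.16 and 3.40 RPKM in hrde-1 (log2 change 1.37, SE 0.27, limma adjusted p 2.76e-05). IV 8396 kb had 16.4, 12.5 and 11.5 RPKM in met-2 set-25, against 4.57, 5.78 and 2.26 RPKM in hrde-1 (log2 change 1.33, adjusted p 1.64e-05). No library of one strain overlapped the other in these windows, which after scaling held in this direction for 5.36% of the members and 3.81% of all windows. II 7082 kb, V 12694 kb and IV 4192 kb were higher by 1.31, 1.26 and 1.24 on the log2 scale. Since GRH windows were chosen for low H3K9me3 in hrde-1, this direction is not independent of the marking. Without the oma-1 RNAi libraries 27 members (6.29%) were called lower, where 2.09 percent of all windows were. The island medians did not overlap between the strains, 2.23 to 3.62 times the background in met-2 set-25 and 5.06 to 6.54 times in hrde-1 (exact permutation p = 0.1, 0.4 adjusted, n = 3 each).

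Between set-32 and hrde-1 few island windows passed the test. The median member was at -0.22 on the log2 scale, where the median of all windows was at 0.01. By kind, the median was at 0.57 for GRH members without the GRTS mark, -0.15 for GRTS members and -0.26 for those with neither mark. The test called 9 members (2.10%, of all windows 0.0662 percent) higher in set-32 and 2 (0.466%, of all windows 0.352 percent) lower. At an unadjusted p under 0.05 in limma 27 members were higher and 71 lower. The library codes of these strains differ. All 9 members called higher were GRH windows without the GRTS mark, and 4 were the whole island II 11172 to 11175 kb. II 11173 kb had 10.5, 15.3 and 16.5 RPKM in set-32, against 2.57, 3.98 and 4.81 RPKM in hrde-1 (log2 change 1.63, SE 0.27, limma adjusted p 2.66e-06). V 14275 kb had 13.2, 14.96 and 18.5 RPKM in set-32, against 2.78, 6.64 and 4.06 RPKM in hrde-1 (log2 change 1.60, adjusted p 8.86e-06). IV 4724 kb, II 11174 kb and IV 4188 kb were higher by 1.53, 1.51 and 1.28. The windows that were lower in set-32 were V 10718 kb (log2 change -1.11) and III 8858 kb (log2 change -1.09), with adjusted p of 0.0489 and 0.0175. Without the oma-1 RNAi libraries 1 member passed as higher (0.233%, of all windows 0.0160 percent). The marking of GRH windows is not independent of this direction either.

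In H3K9me3 the islands stood close to the arm windows of equal rank. The island median divided by the arm median was 0.949 ± 0.0173 in set-32, 1.04 ± 0.00812 in the triple mutant, 1.03 ± 0.00941 in met-2 set-25, 0.903 ± 0.0269 in hrde-1 and 0.948 ± 0.0321 in WT (SD, n = 3). The ratio was higher in met-2 set-25 than in hrde-1 by 1.14 times, in the triple mutant than in set-32 by 1.09 times and in set-32 than in hrde-1 by 1.05 times, without overlap of the libraries (exact permutation p = 0.1 each, 0.267 adjusted over 8 comparisons, n = 3 each). For set-32 against hrde-1 the exact permutation p was 0.3 with members from the top 10 percent and 0.2 with members chosen on OP50 alone, so that the libraries then overlapped. Between the triple mutant and met-2 set-25 the exact p was 0.6. The triple mutant was lower than set-32 in 74.0% of the arm windows and 48.0% of the islands, and met-2 set-25 was lower than hrde-1 in 59.0% of the arm windows and 34.7% of the islands. This difference between islands and arms was not tested as such.

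Pol II was not used by the rule, and here the strains could be tested against WT. In hrde-1, 103 members (24%) rose in Pol II, where 0.464 percent of all 99742 windows did, and 11 (2.56%, of all windows 0.135 percent) fell. Of the arm windows 4.80% rose. The 103 windows lay in 27 islands and had a median fold of 3.44 on the log2(RPKM + 1) scale. The median member was at 0.26 (log2), and all windows at 0.00, and 140 members were higher at an unadjusted p under 0.05. The island medians were 11.2 and 9.17 RPKM in hrde-1 on gfp and oma-1 RNAi, against 6.42 and 5.51 RPKM in WT. The libraries did not overlap, in a design of 2 against 2 whose smallest exact permutation p is 0.333 (fold 1.70, p = 0.333, 0.444 adjusted over 8 comparisons, n = 2 each). Left to 1 feeding, with no test possible, the median change was 0.51 on gfp RNAi and 0.07 on oma-1 RNAi.

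**Figure D4:**
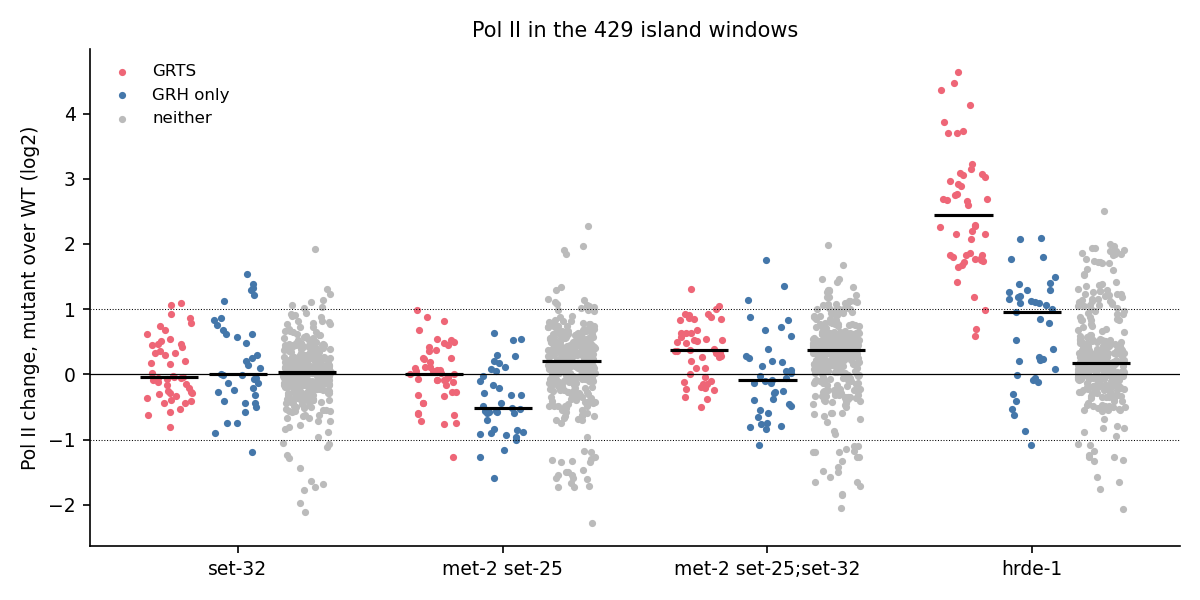
Change of Pol II (log2, mutant over WT, on log2(RPKM + 1)) in each of the 429 island windows, for the 4 mutants and for GRTS windows, GRH windows without the GRTS mark and windows with neither. Black bars are medians and dotted lines mark a 2-fold change. In hrde-1 the GRTS windows have a median of 2.44, and in the HMT mutants the medians of all kinds lie between -0.52 and 0.38.

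Of the 103 members with more Pol II in hrde-1, 45 were GRTS windows, 17 GRH windows without the GRTS mark and 41 had neither mark. Of 48 GRTS members 45 (93.8%) rose, with medians of 31.1 and 28.9 RPKM in hrde-1 on gfp and oma-1 RNAi, against 5.19 and 4.44 RPKM in WT. Of the 39 GRH members without the GRTS mark 17 (43.6%) rose, with 21.4 and 29.1 RPKM in hrde-1, against 12.4 and 13.6 RPKM in WT. Of the 342 members with neither mark 41 (12%) rose, with medians of 8.06 and 5.57 RPKM in hrde-1, against 6.04 and 5.07 RPKM in WT. GRTS windows were picked for higher transcription in hrde-1, so their count describes how the mark holds in these libraries. The 41 unmarked windows were not picked themselves, but part of them lie in islands that hold GRTS windows, so they are not independent of that choice. How many lie in islands without a mark was not counted. Outside the near-equal pair of islands V 8867 and V 8825 kb, 17 of 20 GRTS members, 17 of 39 GRH members and 29 of 326 unmarked members rose. Among the 150 members with whole reads, 24 (16%) rose.

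The strongest windows were in IV 4124 to 4142 kb, an island of 18 windows with 10 GRTS and 4 GRH windows. IV 4129 kb had 313 and 250.2 RPKM of Pol II in hrde-1 on gfp and oma-1 RNAi, against 10.4 and 10.1 RPKM in WT (log2 change 4.64, SE 0.22, limma adjusted p 3.00e-13). IV 4130 kb had 117 and 258 RPKM in hrde-1, against 6.93 and 6.92 RPKM in WT (log2 change 4.46). IV 4131 kb and IV 4128 kb rose by 4.35 and 4.14 on the log2 scale. V 8830 kb, in the near-equal pair, had 144 and 132 RPKM in hrde-1, against 8.25 and 8.87 RPKM in WT (log2 change 3.86, adjusted p 2.14e-10). The groups lay far apart in each of these windows. In the pair itself 20 of 22 windows rose in each island, and 12 of 18 rose in IV 4124 kb. II 7079 to 7083 kb (4 of 4), V 14274 kb onward (3 of 3), II 11172 to 11175 kb (3 of 4) and III 7668 kb onward (4 of 5) also rose in most windows.

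Islands with high Pol II in hrde-1 differed in the H3K9me3 they kept there. In V 8867 kb onward the mean H3K9me3 was 37.5, 36.1 and 43.7 RPKM in hrde-1 on OP50, gfp and oma-1 RNAi, against 63.8, 32.8 and 48.1 RPKM in WT, and its mean Pol II was 36.3 and 32.4 RPKM in hrde-1, against 9.25 and 7.23 RPKM in WT. In II 11172 to 11175 kb, where all 4 windows are GRH, H3K9me3 was 4.07, 3.84 and 4.32 RPKM in hrde-1, against 42.9, 22.2 and 31.3 RPKM in WT, and Pol II 35.1 and 34.3 RPKM in hrde-1, against 13.3 and 12.3 RPKM in WT. In V 10718 to 10727 kb H3K9me3 was 36.5, 31.1 and 37.7 RPKM in hrde-1, against 39.5, 19.7 and 29.6 RPKM in WT, with Pol II at 13.7 and 15.1 RPKM in hrde-1 and 12.6 and 15.2 RPKM in WT. These islands show a high Pol II level beside kept H3K9me3, a high Pol II level beside little H3K9me3, and kept H3K9me3 with Pol II close to WT. The relation between the marks was not tested.

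**Figure D5:**
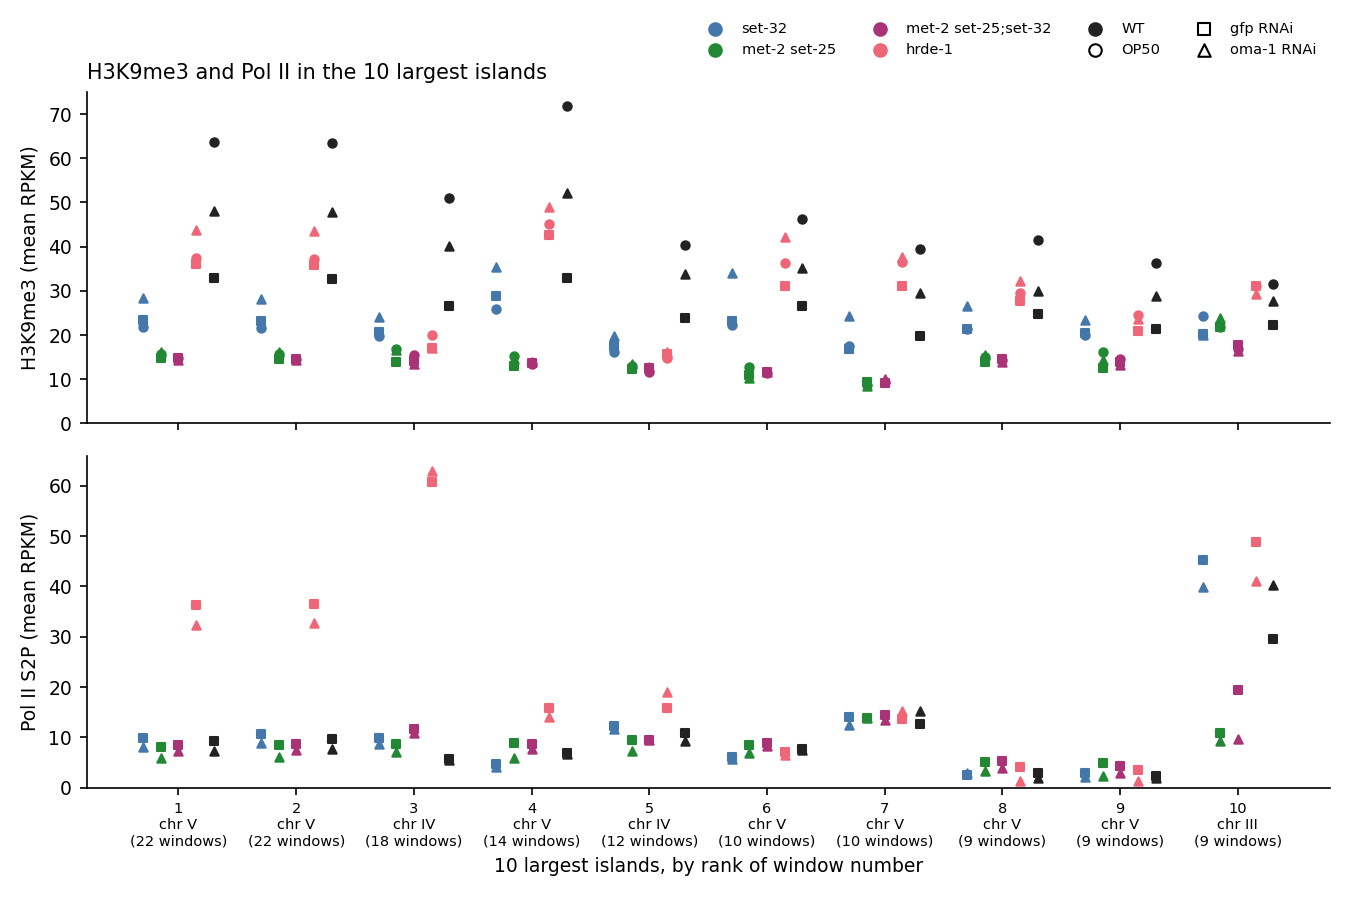
Mean H3K9me3 (top, RPKM) and mean Pol II (bottom, RPKM) of the 10 islands with the most member windows, in order of window number, for each strain (colour) and feeding (shape). Islands 1, 2 and 3 are V 8867, V 8825 and IV 4124 kb, where Pol II stands at 32.4 to 62.9 RPKM in hrde-1 only, and island 10 is III 6567 kb, where it is at 9.31 to 19.5 RPKM in the mutants without met-2 and set-25 against 29.5 and 40.3 RPKM in WT.

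In the HMT mutants, island windows moved in Pol II in both directions and in small numbers. For the triple mutant 18 members rose (4.20%, of all windows 1.85 percent) and 21 fell (4.90%, of all windows 0.475 percent). In met-2 set-25, 4 rose (0.932%, of all windows 0.299 percent) and 22 fell (5.13%, of all windows 0.136 percent). In set-32, 14 rose (3.26%, of all windows 0.704 percent) and 12 fell (2.80%, of all windows 1.32 percent). Median members were at 0.34 for the triple mutant, 0.15 for met-2 set-25 and 0.03 for set-32, where all windows were at 0.27, 0.19 and 0.02. With each library scaled to the median of all its windows, these island medians turned to -0.06, -0.18 and -0.05. The island medians were 8.06 and 6.64 RPKM for the triple mutant, 7.81 and 5.06 RPKM for met-2 set-25 and 6.02 and 5.35 RPKM for set-32 on gfp and oma-1 RNAi, against 6.42 and 5.51 RPKM in WT. All 4 comparisons share the WT libraries.

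The windows with less Pol II in the double and triple mutants lay mainly on chromosome III, with 19 of the 22 and all 21. There were 58 members on this chromosome. All 9 windows of III 6567 to 6575 kb fell in both. Its mean Pol II was 10.9 and 9.31 RPKM in met-2 set-25, 19.5 and 9.71 RPKM in the triple mutant, 45.2 and 40.0 RPKM in set-32 and 48.9 and 41.1 RPKM in hrde-1, against 29.5 and 40.3 RPKM in WT. III 6575 kb had 7.52 and 6.27 RPKM in met-2 set-25, against 40.4 and 34.3 RPKM in WT (log2 change -2.28, SE 0.23, limma adjusted p 1.49e-06), and III 6568, III 6572 and III 6569 kb fell by 1.73, 1.72 and 1.67 on the log2 scale. The value of III 6575 kb was a whole number of reads in 0 of 25 libraries, and those of the other 3 windows in 3, 1 and 4. These windows thus hold reads shared with other places. The island kept a mean H3K9me3 of 21.9, 21.9 and 23.9 RPKM in met-2 set-25, against 31.5, 22.4 and 27.6 RPKM in WT.

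III 8856 to 8861 kb had the most Pol II of all islands of at least 3 windows. Its mean was 65.8 and 57.5 RPKM in set-32, 31.7 and 48.3 RPKM in met-2 set-25, 27.9 and 30.2 RPKM in the triple mutant and 39.3 and 49.7 RPKM in hrde-1, against 80.9 and 109.6 RPKM in WT. In the triple mutant 5 of its 6 windows fell, led by III 8860 kb with 41.7 and 47.7 RPKM, against 154 and 231 RPKM in WT (log2 change -2.05, SE 0.24, limma adjusted p 2.77e-05). III 8857, III 8858, III 8859 and III 8856 kb fell by 1.86, 1.84, 1.71 and 1.66 on the log2 scale. The island III 3889 kb onward was low in every mutant, at 4.28 and 3.83 RPKM in set-32, 6.61 and 5.64 RPKM in met-2 set-25, 6.46 and 5.48 RPKM in the triple mutant and 6.38 and 3.76 RPKM in hrde-1, against 16.2 and 14.1 RPKM in WT. III 3890 kb fell in set-32, met-2 set-25 and hrde-1, by 2.11, 1.73 and 2.06 on the log2 scale (limma adjusted p 9.99e-05, 0.00424 and 2.17e-04). These are the islands in which WT had more H3K9me3 on RNAi bacteria, the feedings that Pol II was compared on, than on OP50. On OP50 their mean H3K9me3 in WT was below the limit of 22.6 RPKM, so they became members through the RNAi feedings. The falls are thus measured against the WT feedings that chose these windows, and their p-values do not allow for that choice. There is no Pol II library on OP50. Without their 13 windows, 10 members fell in the triple mutant (2.40%), and for met-2 set-25 the count was 15 (3.61%). These islands held 8 of the 12 members that fell in set-32 and 10 of the 11 that fell in hrde-1.

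In set-32 the largest rise was in a GRH-bearing island near the end of the chromosome V centre. V 15589 to 15596 kb, with 5 GRH windows of 8, had a mean Pol II of 26.1 and 26.3 RPKM in set-32, 12.1 and 11.3 RPKM in met-2 set-25, 20.2 and 23.2 RPKM in the triple mutant and 18.2 and 21.9 RPKM in hrde-1, against 10.6 and 10.1 RPKM in WT. Of its windows 5 rose in set-32, 4 in the triple mutant and 4 in hrde-1, and in met-2 set-25 none did. In set-32, V 15593 kb had 50.9 and 53.9 RPKM, against 14.7 and 11.6 RPKM in WT (log2 change 1.92, SE 0.23, limma adjusted p 5.72e-06). II 7083 kb had 33.5 and 37.4 RPKM in set-32, against 11.7 and 11.3 RPKM in WT (log2 change 1.54). Each set-32 library was above each WT library in these windows, which held for 27.0% of the members and 21.2% of all windows. V 15594, II 7082 and V 15585 kb rose by 1.38, 1.32 and 1.31. Beside III 3890, the largest falls in set-32 were in III 3894, III 3895, III 3889 and III 3892 kb.

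The rises in the other HMT mutants were scattered. IV 4013 kb had 28.0 and 20.4 RPKM in the triple mutant, against 8.96 and 3.00 RPKM in WT (log2 change 1.98, adjusted p 6.94e-04). V 15589 kb had 38.5 and 47.0 RPKM, against 9.37 and 14.98 RPKM in WT (log2 change 1.76). V 15732, V 15585 and III 4046 kb rose by 1.67, 1.47 and 1.46. In met-2 set-25 the 4 windows that rose lay in V 16440 kb onward and IV 3953 kb onward. V 16441 kb had 17.5 and 16.6 RPKM in met-2 set-25, against 3.87 and 1.84 RPKM in WT (log2 change 2.28, SE 0.37, limma adjusted p 0.00216), and V 16440, IV 3954 and IV 3955 kb rose by 1.97, 1.90 and 1.84. In hrde-1 the falls were in III 3890, III 3894, III 3891, III 3889 and III 3895 kb, by 2.06, 1.76, 1.64, 1.57 and 1.31 on the log2 scale, and in 5 windows of III 8856 kb and 1 of V 12691 kb.

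In the HMT mutants few GRTS windows passed the test for Pol II. The 48 GRTS members had medians of 5.70 and 5.13 RPKM in set-32, 6.73 and 3.51 RPKM in met-2 set-25 and 7.30 and 5.54 RPKM in the triple mutant, against 5.19 and 4.44 RPKM in WT. Of these windows 2 rose in set-32, and 1 rose and 0 fell in the triple mutant. None rose and 1 fell in met-2 set-25 (over all 429 members, 39 had more Pol II in met-2 set-25 at an unadjusted p under 0.05 in limma). The change in hrde-1 was not tested against that in the HMT mutants.

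The remaining named islands give the range of levels. IV 11033 to 11035 kb had the highest mean WT H3K9me3 of the islands with at least 3 windows. It had 40.1, 38.0 and 48.9 RPKM in set-32, 18.6, 19.3 and 19.5 RPKM in met-2 set-25, 20.1, 15.8 and 17.9 RPKM in the triple mutant and 69.3, 60.7 and 67.0 RPKM in hrde-1, against 102, 48.3 and 74.1 RPKM in WT on OP50, gfp and oma-1 RNAi. Its Pol II was 36.0 and 19.3 RPKM in hrde-1, against 24.7 and 22.5 RPKM in WT. II 10704 to 10710 kb kept 49.7, 43.4 and 52.0 RPKM of H3K9me3 in hrde-1, against 49.2, 29.5 and 42.4 RPKM in WT, and had 12, 14.8 and 14.3 RPKM in the triple mutant. IV 6344 to 6357 kb, with 3 GRH windows of 12, had 14.9, 15.7 and 16.1 RPKM in hrde-1, against 40.5, 23.9 and 33.8 RPKM in WT. The GRH-bearing islands IV 4186 to 4192 kb and III 7676 to 7681 kb had 6.84 to 9.27 and 7.83 to 8.65 RPKM in hrde-1, against 20.4 to 37.1 and 19.2 to 34.0 RPKM in WT. Their Pol II was 43.6 and 48.4 RPKM and 30.8 and 33.9 RPKM in hrde-1, against 24.8 and 28.8 RPKM and 25.8 and 29.9 RPKM in WT. V 16527 to 16536 kb and V 15614 to 15622 kb had little Pol II in any strain, at 1.22 to 5.24 RPKM and 1.38 to 4.88 RPKM.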

How the data were processed

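The authors aligned the ChIP-seq reads to WS190 using Bowtie 0.12.7 without mismatches, gave each of N matching places 1/N of a read, and deposited RPKM values for 1 kb windows, 1 column per library. The table also marks misannotated, GRH and GRTS windows. Its columns with the authors' own calls of HMT dependence in 2 repeats and 1 column of unstated content (K9_tire) were not used. Input libraries and other assays were not analysed here.

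A filter removed 22 of 99764 windows (mean below 3 RPKM across the ChIP libraries), and all 429 members passed it. H3K9me3 was scaled to the H3K9me3(-) median (22228 windows, 1.60 to 4.48 RPKM in WT on OP50), Pol II to depth only. limma 3.58.1 (R 4.3.3) with trend was fitted on log2(RPKM + 1) over all windows and all 5 strains of a mark, with feeding as a block, and p-values were adjusted over all windows of a comparison. For H3K9me3 limma's prior degrees of freedom came out infinite, which gives windows of equal mean the same variance. Counts at an unadjusted p were made among members only, so no share over all windows goes with them. Library medians were tested by exact permutation, two-sided (3 against 3, smallest p 0.1; 2 against 2, smallest p 0.333), adjusted over 8 comparisons. Python 3.11.15 did the rest.

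The windows named are the 10 islands with the most members, 5 each with the highest WT H3K9me3 and WT Pol II among islands of at least 3 windows, up to 5 called members in each direction of a tested comparison, 3 members on either side of the limit, and oma-1, cdc-42 and the ChIP-qPCR control region. Other islands were named after their values were seen. The members and lists were chosen with earlier results of these data known. The alternatives were depth or median scaling, pseudocounts of 0.5 and 5, no low filter, no block, a 1.5-fold limit, other member limits, and each feeding left out.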

Additional observations from a re-analysis of the deposited data

Results flagged for a closer look

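The comparisons below went opposite ways on different feedings. There is 1 library for each strain and feeding, and the difference between feedings was not tested. For H3K9me3, the island median of set-32 over that of hrde-1, both over their H3K9me3(-) median, was 0.61 on OP50 and 0.889 on gfp RNAi, but 1.07 on oma-1 RNAi. For Pol II, the island median of met-2 set-25 over that of WT was 1.22 on gfp RNAi and 0.918 on oma-1 RNAi. The median of all windows in the met-2 set-25 library on gfp RNAi was 6.29 RPKM, against 4.69 RPKM in WT, and its part in the ratio was not tested. Groups of 3 and 2 libraries are too small for the test of single distant libraries.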

How the results depend on the processing

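Values are percent of members called, in the direction with more calls. With depth normalization only, the triple mutant against set-32 fell to 12.6 (48.0 as reported) and against met-2 set-25 to 0 (0.233). A pseudocount of 5 gave 24.7 and 0 for these, 0.932 for set-32 against hrde-1 (2.10) and, in Pol II against WT, 3.03 for the triple mutant (4.90) and 1.40 for set-32 (3.26). A pseudocount of 0.5 gave 0.466 for the triple mutant against met-2 set-25. Members from the top 10 percent gave 0.0955, 25.3, 21.3 (met-2 set-25 against hrde-1, 34.7) and 1.24 in H3K9me3, and 2.87 (met-2 set-25, 5.13), 2.29 (triple mutant) and 11.4 (hrde-1, 24) in Pol II. The top 3 percent gave 0.431 for the triple mutant against met-2 set-25, and members chosen on OP50 alone 2.43 for Pol II in the triple mutant. Pol II scaled to the median of all windows gave 8.16 in the triple mutant, where the share of all windows called lower was 4.93 percent (0.475 as reported), and 1.86 in set-32 (of all windows 0.487 percent, 0.704 as reported).

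The next alternatives were chosen after seeing the data. Without GRH and GRTS windows the values were 0 (triple mutant against met-2 set-25 and set-32 against hrde-1), 12 (Pol II in hrde-1) and 1.75 (Pol II in set-32). Whole-read windows gave 0, 4.67 (set-32 against hrde-1) and 16 (Pol II in hrde-1). Without windows low in WT on OP50, Pol II in the triple mutant was 2.40.

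Leaving out 1 feeding gave 0 to 1.40 for the triple mutant against met-2 set-25, 0 to 63.9 against set-32, 6.29 to 38.5 for met-2 set-25 against hrde-1 and 0.233 to 2.80 for set-32 against hrde-1. The lowest of the last 3 ranges came without oma-1 RNAi. Pol II with 1 feeding left has no residual degrees of freedom and no test.

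These values changed sign. On the log2 scale the Pol II median of members turned to -0.051 (set-32), -0.18 (met-2 set-25) and -0.058 (triple mutant) with median scaling and to -0.035 for set-32 with the top 3 percent. For met-2 set-25 it was -0.052 without gfp RNAi and 0.32 without oma-1 RNAi. With median scaling the difference of island medians turned to -0.29 (met-2 set-25, 0.08 as reported) and -0.18 (triple mutant, 0.30 as reported). The island to arm ratio of the triple mutant against met-2 set-25 turned to -0.010 (log2) with members from OP50.

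Feedings were a block in the model. Same-feeding libraries deviated together with correlations of -0.23 to 0.39 in H3K9me3 (median 0.01) and 0.03 to 0.50 in Pol II (median 0.15). Above 0.1 were 8 of 30 pairs in H3K9me3 and 16 of 20 in Pol II. In H3K9me3 a feeding is thus little more than a shared label, while in Pol II most same-feeding libraries deviated together. In H3K9me3, 7 of 15 libraries matched their own feeding best. With 2 Pol II feedings, the deviations of a strain from its mean mirror each other, so each Pol II correlation is counted on both feedings. That each Pol II library (10 of 10) matched its own feeding best follows from positive correlations and adds nothing to them. Without the replicate block 160 members were called in the triple mutant against set-32 (206 with it), 131 in met-2 set-25 against hrde-1 (149) and 92 in Pol II of hrde-1 (103), and no count moved over 1.5 times. Of all windows 4.51, 4.60 and 0.378 percent were called in these without the block. With 21.7 to 46.6 Pol II reads in the median member, small Pol II changes were not detectable at this depth.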
